A study of Mus musculus with 3 samples.

Results

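Genes that mark blood vessels, macrophages and red blood cells were read in sorted cap mesenchyme of the embryonic mouse kidney. The aim was a check for RNA of these unwanted lineages. Whether a signal came from cells of these lineages or from cap mesenchyme cells themselves was not tested. The set comprised 40 genes: 14 of vessel endothelium, 14 of macrophages and 12 of red cells. Of these, 39 had a probe set that the platform annotation gives to that gene alone, with 63 such probe sets in all, out of 18193 genes and 45101 probe sets on the array. The exception was Ahsp, whose product chaperones alpha-globin in red cell precursors, and it was not analysed here. The cells came from E15.5 CD-1 embryos (Theiler stage 23, sex unknown) that carried the transgene Tg(Six2-EGFP/cre)1Amc, which marks cells with Six2 activity by EGFP. Fetal kidneys were dissociated with trypsin, passed through a 70 micron mesh and sorted by fluorescence. All 3 samples belonged to this single group. Each pooled roughly 5 to 10 kidneys, and they are called pools 1, 2 and 3. A sample of EGFP-negative cells or of unsorted kidney was not analysed here, so each marker was set against the background of the arrays.

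Cap mesenchyme is the progenitor population of the nephron and lies around the tips of the branching ureteric bud. Endothelial cells, tissue macrophages and circulating red cells all occupy the spaces around it in the fetal kidney, and young red cells of fetal blood hold abundant globin mRNA. Endothelial identity rests on vascular growth factor receptors, junction proteins and transcription factors. Macrophages depend on the receptor encoded by Csf1r and make complement C1q, while red cell precursors follow Gata1 and Klf1 to make heme and globin.

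The values are linear array signals as deposited, and the mean of each array without its lowest and highest 2% was 1500. The background level was the 95th percentile of 150 probe sets for olfactory, vomeronasal and taste receptor, hair and defensin genes. This level was 197 for pool 1, 186 for pool 2 and 201 for pool 3, and the medians of these probe sets were 32.4, 37.1 and 30.8. Distances to that level are differences of log2(signal + 16), which understate differences of weak signals. A probe set was called above background when limma's one-sided test across all probe sets gave a Benjamini-Hochberg adjusted p under 0.05. SE stands for limma's moderated standard error, which pulls the spread of each probe set toward that of probe sets of similar signal. It is thus not the standard error of the 3 values alone. A gene was called when any of its probe sets was, and its brightest probe set gives the values. Probe sets differ in affinity, so the signals, distances and statistics of different genes do not rank their amounts of RNA. The number of arrays limits the precision. The labels do not say whether the pools came from separate litters. The p-values thus rest on the spread between these 3 samples, moderated as for the SE, and take the background level as fixed. As a check of the labelled cell type, 8 cap mesenchyme markers were examined (Six2, Cited1, Eya1, Sall1, Gdnf, Meox1, Crym and Itga8). All 8 were above background, and 54.4% of all genes were. The brightest probe sets of the 8 lay 2.08 to 7.32 log2 units over the level. Of their 12 probe sets 11 were called, while the other, of Sall1, lay at 0.19 log2 units (adjusted p = 0.58, limma). These markers were chosen with earlier results of these data known, so the check is not independent. In RNA from many cells, fewer cells of a type and less RNA per cell cannot be told apart.

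Most vessel, macrophage and red cell markers were not above background in the sorted cells. Of the 39 measured members 4 were called, namely 3 of 14 vessel genes (Egfl7, Eng and Plvap), 1 of 14 macrophage genes (Laptm5) and 0 of 11 red cell genes. Across all genes of the array the share called was 54.4%. The median distance to the background level was -0.99 log2 units for vessel, -1.39 for macrophage and -1.81 for red cell members, against 1.25 for all named genes outside the background set and -1.92 for the background genes themselves. All 3 pools lay under the level for 9 vessel, 11 macrophage and 9 red cell members, together 29 of 39, whereas 34.5% of all genes did so. No call among the 4 reached more than 1.53 log2 units over the level. None of the 4 held when the 99th percentile of background was used as the level.

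**Figure D1:**
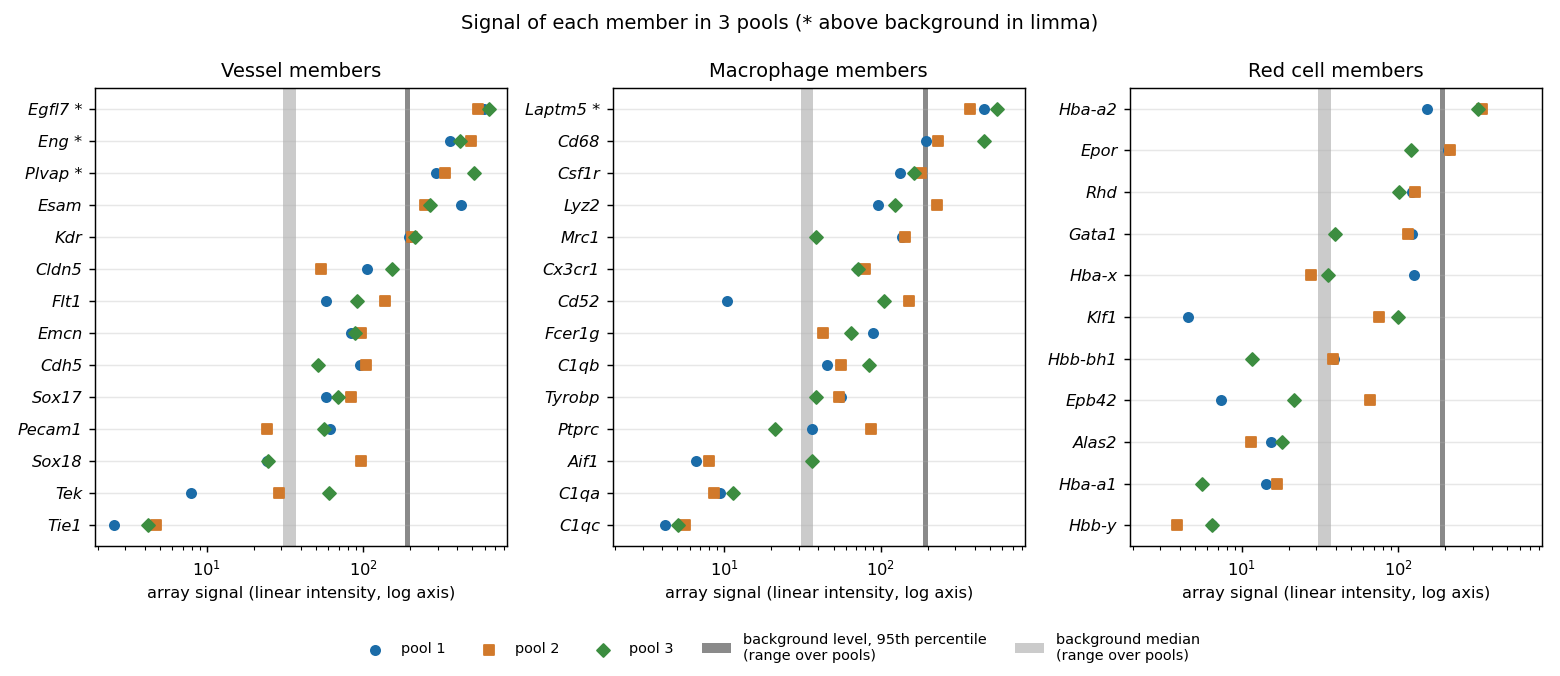
Array signal of each measured member (rows) in pools 1 to 3 (symbols), on a log axis, in 3 panels by lineage. The dark band is the background level over the 3 pools (186 to 201) and the light band the median of background, asterisks mark genes above background in limma, and most symbols lie left of the dark band.

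Egfl7 was above background in all 3 pools. It encodes a protein that endothelial cells secrete into the matrix of forming vessels. Its signal was 591 in pool 1, 545 in pool 2 and 636 in pool 3, against background levels of 197, 186 and 201. This corresponded to 1.53 ± 0.17 log2 units over the level (moderated SE, n = 3, adjusted p = 8.9e-05, limma). The signal was alike in the 3 pools and exceeded 99.3% of the background probe sets in each. Egfl7 also hosts a microRNA that is known as abundant in endothelium, miR-126, and its sequence is shown because a reader checking for vessel RNA would look for it next. The microRNA itself was not measured by these probe sets. In RefSeq (GRCm38.p6) the mature form lies at chr2:26591402-26591423 on the + strand, inside Egfl7, and the capitals mark its seed (bases 2 to 8).
mmu-miR-126a-3p: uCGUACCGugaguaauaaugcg

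Eng and Plvap were the other vessel genes above background. Eng, which encodes endoglin, a co-receptor for TGF-beta family ligands, had signals of 362, 494 and 417 in pools 1, 2 and 3. All 3 exceeded the level, by 1.05 ± 0.22 log2 units on average (SE, n = 3; adjusted p = 0.0026, limma). Plvap encodes the protein of the diaphragms that span endothelial fenestrae. It read 294, 334 and 513 in the same order, 0.87 ± 0.24 log2 units over the level (adjusted p = 0.012, limma), with pool 3 apart from the others. Without pool 2 the adjusted p of Plvap was 0.067 and without pool 3 it was 0.079 (limma), so the call was lost without either. The calls of Egfl7 and Eng remained whichever pool was left out, but that of Eng was lost when its probe sets were averaged (adjusted p = 1, limma), since its other probe set lay at -1.24 log2 units.

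Esam, an adhesion molecule of endothelial junctions, lay just outside the threshold. Its signals were 424, 249 and 267, above the level in every pool, at 0.61 ± 0.26 log2 units (SE, n = 3; adjusted p = 0.064, limma; unadjusted p = 0.027). Pool 1 was the highest, and the others lay close together. Kdr, the main signalling receptor for vascular endothelial growth factor, read 197, 207 and 214. These signals sat on the level itself (0.08 ± 0.28 log2 units, adjusted p = 0.82, limma), and the highest pool was 1.08-fold over the lowest on the scale of signal + 16.

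The remaining vessel markers were under the level in all 3 pools. Among them were the genes most often used to define endothelium. Pecam1, the adhesion molecule CD31, read 61.9, 24.4 and 56.7. Cdh5, the cadherin of endothelial junctions, read 96.3, 104 and 51.5. Both lay in the range of the background probe sets, of which between 39.3% and 80.7% were lower. Of the receptor genes, Flt1, a receptor that binds vascular endothelial growth factor, had signals of 57.6, 138 and 90.95. Tek, the angiopoietin receptor, read 7.92, 29.1 and 60.2. Tie1, its partner receptor, was at 2.54, 4.72 and 4.21. The Tie1 signal was lower than over 90% of background probe sets in each pool, since 4.67%, 7.33% and 8% of them were below it. Emcn, a sialomucin of the vessel surface, read 83.3, 97.1 and 88.8, and Cldn5, a claudin of tight junctions in endothelium, read 106, 53.7 and 154. The transcription factor genes Sox17 and Sox18, which act in arterial and lymphatic development, had signals of 57.6, 84.1 and 69.3, and of 24.4, 96.5 and 24.5. Pool 2 was thus the highest for both, but no pool approached the level.

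Laptm5 was the macrophage marker above background. It encodes a lysosomal membrane protein of blood cells. Signals were 459 in pool 1, 374 in pool 2 and 553 in pool 3, or 1.17 ± 0.21 log2 units over the level (SE, n = 3; adjusted p = 0.0011, limma), and the call remained without any one pool. The probe set behind these values can match several transcripts. With such probe sets left out, the adjusted p of Laptm5 was 0.33 (limma).

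Cd68 and Lyz2 crossed the level in some pools. Cd68, a lysosomal glycoprotein used to stain macrophages, had signals of 196, 233 and 461. Pool 3 was 2.25-fold over pool 1 on the scale of signal + 16, and the mean did not pass (0.48 ± 0.31 log2 units, adjusted p = 0.18, limma). Lyz2, a lysozyme gene of macrophages and neutrophils, read 96.5, 230.1 and 124, so that pool 2 exceeded its level of 186 and the others did not. Csf1r, the growth factor receptor on which macrophages depend, stayed under the level with 133, 182 and 163. Its distance was -0.27 ± 0.31 log2 units, and 88.7% to 94.7% of background probe sets were lower.

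The other 10 macrophage markers were under the level in all 3 pools. The 3 chains of complement C1q, which macrophages make together, gave low signals: C1qa read 9.42, 8.64 and 11.4, and C1qc read 4.20, 5.61 and 5.08. C1qb read 45.2, 56.2 and 84.0. The C1qa and C1qc signals were under the median of background in all 3 pools. The adaptor genes of immune receptors were also low, with Fcer1g at 89.1, 43.1 and 64.6 and Tyrobp at 56, 54.4 and 38.8. Ptprc, the CD45 phosphatase on all white blood cells, read 36.7, 86.3 and 21.0. Mrc1, the mannose receptor of tissue macrophages, read 137, 144 and 38.6, and Cx3cr1, a chemokine receptor, read 71.6, 79.3 and 71.2. Aif1, a calcium-binding protein of macrophages, was at 6.62, 8.0 and 36.6. Cd52, a surface glycopeptide of white blood cells, had signals of 10.4, 153 and 105. Pool 1 was far below the others for Cd52, although every pool stayed under the level.

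No red cell marker passed. The counts were 0 of 11 in limma with adjustment and 0 of 11 at an unadjusted p under 0.05. Alpha-globin, which together with beta-globin forms hemoglobin, came nearest to passing through the probe set of Hba-a2, which read 153, 346 and 326 in pools 1, 2 and 3. Pools 2 and 3 were over the level and pool 1 was under it, so the mean distance was 0.39 ± 0.32 log2 units (SE, n = 3; adjusted p = 0.29, limma). Without pool 1 the adjusted p of Hba-a2 was 0.040 (limma). The probe set of Hba-a1 alone read 14.2, 16.8 and 5.59, under the median of background throughout.

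The adult alpha-globin genes are duplicated copies, and the annotation pairs several probe sets with both. The sequence around their starts is shown for how alike the copies are there, while the transcripts and probes were not compared. In RefSeq (GRCm38.p6) the window of Hba-a1, 300 bases around its start, matched that of Hba-a2 (chr11:32296242-32296541, + strand) at 297 of 297 bases once shifted by 3. The 250 bases before the annotated start of Hba-a1 (chr11:32283422-32283671, + strand) follow, with capitals at TGATAA, which the GATA factors of red cells can bind, at CCAAT and at TATAA.
Hba-a1: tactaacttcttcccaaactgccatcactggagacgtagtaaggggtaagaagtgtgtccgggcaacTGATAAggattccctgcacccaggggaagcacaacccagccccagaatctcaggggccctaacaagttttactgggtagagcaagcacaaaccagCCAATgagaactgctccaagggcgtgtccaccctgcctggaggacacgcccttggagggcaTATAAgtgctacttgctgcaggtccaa
These motifs began 183, 88 and 27 bases before the start. None of them overlapped another. Searched on both strands, TGATAA occurred in 7.94%, CCAAT in 33.8% and TATAA in 22.8% of 32851 such stretches of 250 bases. A match describes the letters and is not evidence of binding.

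The annotation gave 3 further probe sets to Hba-a1 and Hba-a2 together, and these named no gene in the counts. One read 327, 109 and 225 in pools 1, 2 and 3, another read 142, 19.6 and 112, and the last read 5.41, 3.24 and 2.47. None passed (adjusted p = 0.91 for the first and 1 for the others, limma). The pools did not rank alike: pool 2 was the lowest on both brighter shared probe sets and the highest on the probe set of Hba-a2. The annotation pairs a further probe set with 4 genes of adult beta-globin. It was picked out with its values known, and it was above background at 433, 417 and 337 (0.96 ± 0.22 log2 units, adjusted p = 0.0044, limma). All 3 pools exceeded the level there, in contrast to every alpha-globin probe set.

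**Figure D2:**
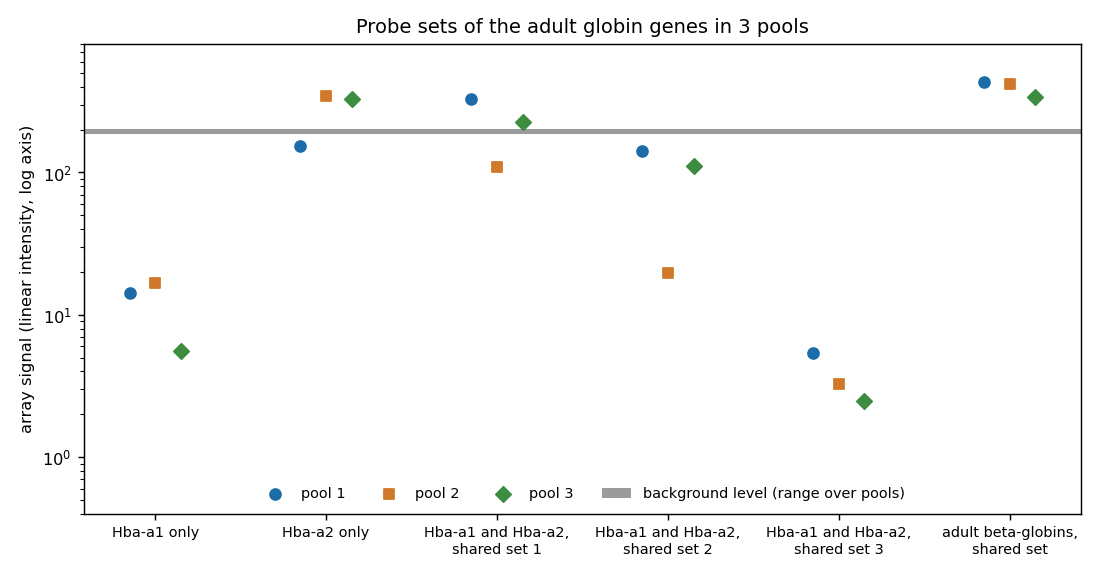
Array signal on a log axis for the probe sets of the adult globin genes (columns), with 1 symbol per pool and the background level as a band. The beta-globin probe set lies above the band in all 3 pools, the brightest alpha-globin probe sets straddle it in different pools, and the others lie below.

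Embryonic globins and genes of red cell production were not above background either. Hbb-y, the embryonic beta-like globin, read 6.44, 3.82 and 6.41, and Hbb-bh1, another embryonic beta-like globin, read 38.8, 38.5 and 11.7. Hba-x, the embryonic alpha-like globin, read 127, 27.6 and 35.7, with pool 1 the highest. Gata1, the transcription factor that directs red cell and platelet formation, had signals of 123, 115 and 39.4. Klf1, which activates adult beta-globin, had signals of 4.52, 75.2 and 99.4. No pool reached the level for either regulator, and the lowest pool differed between them. Alas2, the red cell enzyme that begins heme synthesis, was at 15.3, 11.4 and 18.1, and Epb42, a protein of the red cell membrane skeleton, was at 7.30, 66.1 and 21.5. Rhd, of the Rh blood group complex, read 123, 128 and 102, or -0.66 ± 0.33 log2 units from the level. Epor, the erythropoietin receptor, read 208, 215 and 120.2, above the level in pools 1 and 2 and below it in pool 3 (-0.14 ± 0.33 log2 units, adjusted p = 1, limma).

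Of the 13 members with several probe sets, 10 were not above background on any of them. The other 3 were called on some probe sets and not on others. Egfl7 was called on 3 of 4 probe sets, whose mean signals ran from 410.2 to 591, while the remaining probe set averaged 91.2. Laptm5 was called on 2 of 5, with mean signals between 61.9 and 462 over the 5. Eng was called on 1 of 2, at 424 and 74.3. Over all members, 7 of 63 probe sets were above background (11.1%). Among single-gene probe sets outside the background set 47.4% were, and among all probe sets but controls 41.5%. The 4 Flt1, 3 Csf1r, 3 C1qb, 3 Hbb-y and 3 Hbb-bh1 probe sets were all not above background, with gene by gene maxima of 95.5, 159, 61.8, 5.56 and 29.7 in mean signal. All probe sets of Egfl7 and Eng belong to types that can match several transcripts, of the same gene or of others. Neither gene could be tested without them. Plvap was then the single vessel gene called among 9 that kept a probe set. Whether the probe sets left out match other genes was not tested. When the probe sets of a gene were averaged instead, Egfl7, Esam and Plvap were called, and neither Eng nor Laptm5 was (adjusted p = 0.70 for Laptm5, limma).

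**Figure D3:**
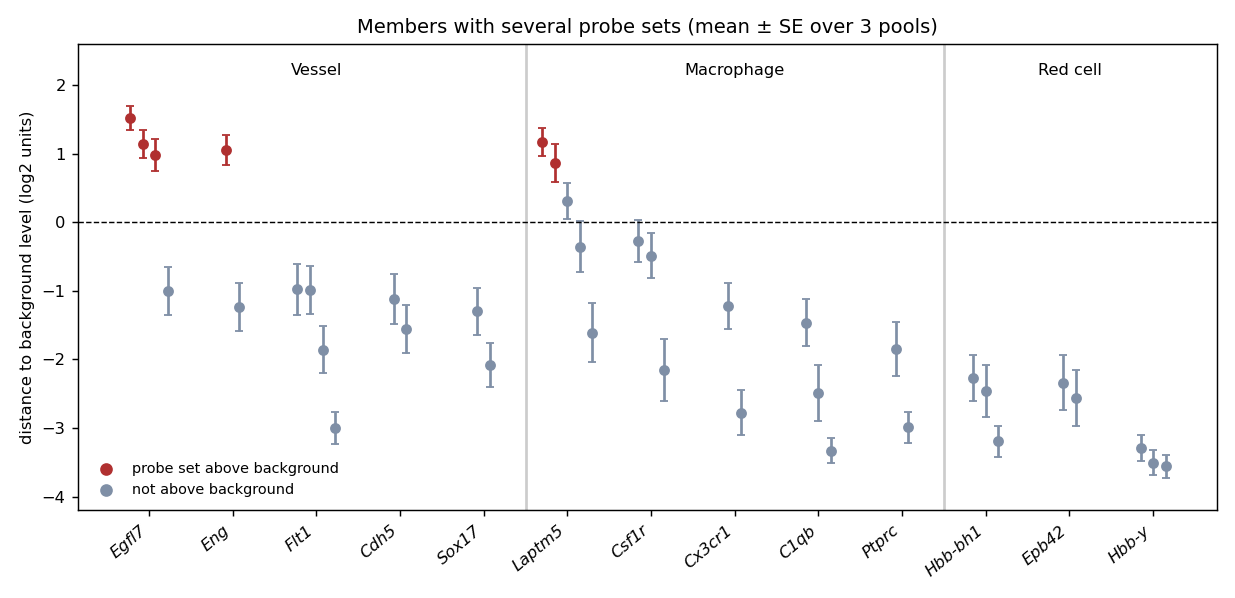
Distance to the background level (log2 units, mean over 3 pools ± limma's moderated SE) for each probe set of the 13 members with several. Genes are grouped by lineage, and the dashed line is the level. Egfl7, Eng and Laptm5 have probe sets on both sides of the line, and every probe set of the other 10 genes lies below it.

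No single pool was the highest for all of these markers, but pool 2 was so most often in each lineage. Among vessel members the highest pool was pool 1 for 2 genes, pool 2 for 7 and pool 3 for 5. Among macrophage members the numbers were 2, 7 and 5, and among red cell members 4, 5 and 2. Over all members, pool 2 was the highest for 19 of 39 genes, pool 3 for 12 and pool 1 for 8. Over all genes of the array the shares were 31.5% for pool 2, 38.9% for pool 3 and 29.6% for pool 1. The background genes showed the same lean, with pool 2 the highest for 59 of 135. In each lineage the median distance to the level was nearest to 0 in pool 2: -0.79 for vessel, -1.03 for macrophage and -1.30 for red cell members. In pool 1 these medians were -1.01, -1.42 and -1.96, and in pool 3 they were -1.04, -1.37 and -2.07. For the background genes the medians were -2.06, -1.86 and -2.06 in pools 1, 2 and 3, so pool 2 was nearest there as well. The part of the array's background in these differences was not tested.

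Some member probe sets differed widely between pools. The highest and lowest pools differed at least 2-fold on the scale of signal + 16 for 23 of 63 member probe sets (36.5%). This held for 32.1% of all single-gene probe sets and 50.4% of those not above background. By lineage the counts were 4 of 23 vessel, 12 of 24 macrophage and 7 of 16 red cell probe sets. Cd52 had the widest range (6.39-fold), followed by Klf1 (5.62-fold) and a Csf1r probe set (4.64-fold), all under the background level in every pool. Of the 7 called member probe sets, a single one, for Laptm5, differed at least 2-fold, at 255, 335 and 579.9. A call is harder to reach when the pools differ, so this count was partly fixed by the test.

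The member signals were not all at the floor of the array. In all 3 pools, 10 of 14 vessel members exceeded the median of background, as did 9 of 14 macrophage and 4 of 11 red cell members. These counts include the members above the level. Of all genes 78.0% did so, and of background genes 44 of 135. Among named genes outside the background set that were not called, 52.0% exceeded the median of background in all 3 pools. The members that lay under that median in every pool were Tie1, C1qa, C1qc, Hba-a1, Hbb-y and Alas2. Their signals ran from 2.54 to 18.1.

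Further genes of these lineages, from lists that did not include the members, were also mostly not above background for vessels and macrophages. Of 25 further vessel genes 4 were above background in limma's test, and 54.4% of all genes were. These were Ramp2, a partner protein of the adrenomedullin receptor (5590.2, 7146 and 7865 in pools 1, 2 and 3), the transcription factor gene Ets1 (2363, 2027 and 2702), Podxl, a sialomucin of both endothelium and podocytes (492, 903 and 690.5), and Ehd3, a membrane trafficking gene (504, 553 and 576). Their distances ran from 1.41 to 5.02 log2 units. Ramp2 had 1 probe set, while Ets1 was called on 2 of 4 and Podxl and Ehd3 on 1 of 2 each. The lowest moderated statistics were those of Vwf, the platelet-binding factor stored in endothelium (2.71, 4.57 and 3.72), and Rasip1 (29.99, 14.7 and 11.4), which acts in vessel lumen formation. Of 19 further macrophage genes 1 was called: Cyba, a subunit of the NADPH oxidase, at 713, 271 and 622. The lowest were Cd163, a scavenger receptor (53.2, 8.11 and 3.40), and the protease gene Ctss (25.96, 49.1 and 19.7).

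In the further red cell list 8 of 21 genes were above background, a share of 38.1% against 54.4% of all genes. Urod (24539, 31572 and 26682) and Fech (4409, 4176 and 4095) encode enzymes of heme synthesis, a pathway that is not limited to red cells. Tfrc, the transferrin receptor by which dividing cells take up iron, read 18119, 15876 and 15346. Bpgm, an enzyme that sets the oxygen affinity of hemoglobin, read 2959, 6238 and 6106, with pool 1 apart. Gypc, a membrane glycoprotein (1062, 1233 and 1354), and the heme metabolism gene Blvrb (651, 593 and 712) were also called. So were the regulators Zfpm1, a partner of GATA factors (521, 376 and 528), and Lmo2, a bridge between blood transcription factors (339.6, 421 and 603). Of those with several probe sets, Urod and Tfrc were called on all. Fech was called on 3 of 4, Bpgm on 2 of 3 and Zfpm1 on 1 of 2. Among those not called, Tspo2 (39.2, 32.4 and 22.9) and Ermap (38.7, 28.7 and 31.6) had the lowest statistics.

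Markers of other cells that vessels and blood could bring were examined in 4 short lists, beside the 54.4% of all genes that were called. Mural cells, the pericytes and muscle cells that wrap vessels, had 4 of 9 markers above background, or 44.4%, near the share of all genes. These were Notch3 (3251, 2264 and 3108), Acta2 (1093, 1008 and 729.6), Pdgfrb (790.2, 818 and 803) and Cspg4 (432, 467 and 702). Cspg4 was called on 2 of 2 probe sets, Notch3 and Pdgfrb on 1 of 2 each and Acta2 on 1 of 3. Tagln and Myh11, of contractile muscle, were not called, with highest signals of 34.6 and 86.9. Of 7 platelet and megakaryocyte markers 2 passed, the integrin gene Itga2b (336, 325 and 295; adjusted p = 0.029, limma) and Gp1bb, a subunit of the platelet receptor for von Willebrand factor (295, 300.3 and 349; adjusted p = 0.033, limma). Both lay 0.65 to 0.67 log2 units over the level, and Gp1bb was called on 1 of 2 probe sets. Neutrophil markers passed in 0 of 8 cases in limma, with 0 also at an unadjusted p under 0.05. Among 6 lymphocyte markers Ighm alone was called, on 1 of 11 probe sets (927, 875 and 953), while Cd3e and Cd3g, chains of the T cell receptor complex, read at most 36.6 and 35.9.

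**Figure D4:**
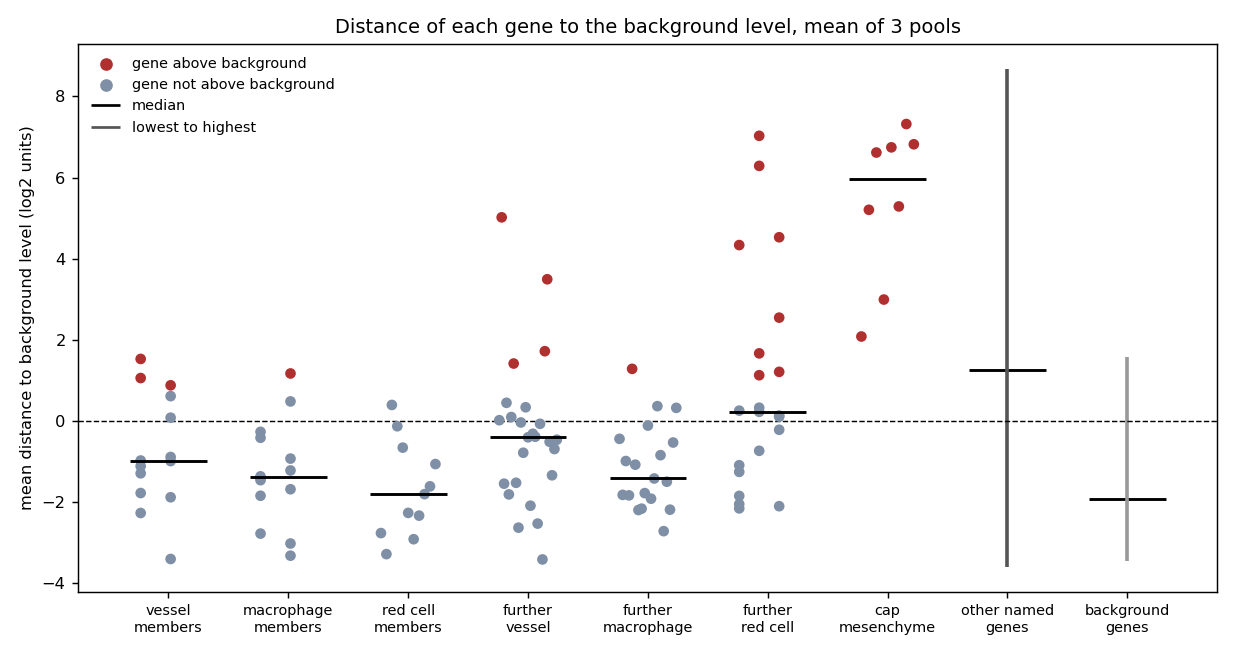
Mean distance to the background level over 3 pools (log2 units; dashed line at 0) for each gene of the member lineages, of the further lists of the same lineages and of the cap mesenchyme markers, with medians as bars; for other named genes and background genes the vertical line spans lowest to highest. Medians are -0.99, -1.39 and -1.81 for vessel, macrophage and red cell members, and 5.95 for cap mesenchyme markers.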

How the data were processed

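The deposited intensity signals, 1 per probe set and array, come from GCOS, per the submitters' processing notes (version not given in the sources used here). Amplification took 2 rounds and the label was biotin, per the labels. Tested on the values, the mean of each array without its lowest and highest 2% was 1500. Gene names come from the platform annotation: 34945 had 1 gene symbol, 932 several and 9160 none, and 64 were controls, left out of tests. Of single-gene probe sets 34741 matched RefSeq, and 0 symbols changed.

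log2(signal + 16) minus the 95th percentile of 150 background probe sets was tested above 0 with limma 3.58.1 (R 4.3.3; intercept-only, eBayes with intensity trend, one-sided, Benjamini-Hochberg over 45037 probe sets). Of the background probe sets, which set the level, 2 were called. Alternatives covered pseudocount, percentile, background genes, normalization, filters, probe set choice, trend and each pool left out. Members and lists were chosen with earlier results of these data known. All members could be named, and of other lists the called genes and the 2 lowest statistics per list. Python 3.11.15, pandas 2.3.3 and matplotlib 3.10.9 made tables and plots.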

Additional observations from a re-analysis of the deposited data

How the results depend on the processing

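The count of vessel members above background (3) was 0 with the level at the 99th percentile and 2 to 3 with a pool left out. Without cross-matching probe sets (types that can match several transcripts, of the same gene or of others) it was 1. It was 4 at the 90th percentile and without dim probe sets, where Esam joined (adjusted p = 0.016 and 0.035, limma; range 0.016 to 1 over 13 alternatives). With other pseudocounts, background genes or normalization, or no intensity trend, the 3 counts were as in the report. The macrophage count (1) was 0 at the 99th percentile, without cross-matching probe sets and with probe sets averaged per gene, and 2 at the 90th percentile, where Cd68 joined (adjusted p = 0.045, limma; range 0.045 to 1 over 13 alternatives). It was 1 whichever pool was left out. The red cell count (0) was 0 to 1 with a pool left out, the 1 being Hba-a2 without pool 1 (limma), and was 0 in every other alternative, including one chosen after seeing the data that also counted the 3 probe sets shared by Hba-a1 and Hba-a2. The beta-globin genes of the called shared probe set are no members and are not in that count. The median log2 distance of vessel members (-0.99) was -0.67 and -2.12 at the 90th and 99th percentiles, -1.17 with averaged probe sets and -0.74 with a pseudocount of 64. For macrophage members (-1.39) it was -1.07, -2.52, -1.65 and -0.96 at the 90th and 99th percentiles and with pseudocounts of 1 and 64. For red cell members (-1.81) it was -2.94 at the 99th percentile, -2.49 and -1.16 with pseudocounts of 1 and 64, -0.87 without dim probe sets, which left 6 genes, and -1.34 without cross-matching probe sets, which left 8. The count of member probe sets differing at least 2-fold between pools (23 of 63) was 35 and 8 with pseudocounts of 1 and 64. It was 15 of the 42 probe sets kept without dim ones, and 16 of the 35 kept without cross-matching ones. With a pool left out it was 11 to 15, since a range over fewer pools is smaller. It was not computed for averaged probe sets. The causes of the other shifts were not tested. No paired analysis was possible because there is a single group. Signals near background limit every call here, since the level itself moves with the percentile chosen.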
